A study of Chenopodium quinoa with 15 samples.

Results

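The roots of Chenopodium quinoa variety NL-6 were compared with 3 other untreated tissues of the same variety, leaf, stamen and pistil. Members were taken from the deposited counts of 58522 annotated genes in 2 ways. A gene was called highest in root when it passed the test with at least a 2-fold difference against each of the 3 other tissues, and lowest in root by the same rule in the opposite direction. A gene was called root-only when it had reads in all 3 root libraries and none in the other 9. There were 3730 genes highest in root and 2163 lowest among 35954 tested, and 702 root-only genes among all 58522. The root samples were 3 of the 15 libraries of the series, and the comparison used 12.

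The study sequenced RNA of wild-type NL-6 plants, and no group carried a transgene or a deletion. Roots came from seedlings that the sample labels give as 2 days old and the series design as 3 days old, kept in the dark on MS medium. Leaves were taken from soil-grown seedlings of 14 days without NaCl, and stamens and pistils from newly opened flowers of soil-grown plants, all under long days. Each of the 3 libraries of a tissue was a pool of several roots, leaves, stamens or pistils, and leaves treated with 400 mM NaCl for 8 h were left out. Root therefore differed from the other tissues in age, light and medium as well as in organ, and these cannot be told apart. In these bulk samples, fewer cells of a type and less RNA per cell also cannot be told apart.

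A young root grows by cell expansion behind its tip, and expansins and xyloglucan endotransglucosylase/hydrolases (XTHs) loosen and rejoin the wall polymers as cells lengthen. Its surface bears root hairs, its tip a shedding root cap, and its endodermis a lignified Casparian strip that forces water and ions through living cells, where transporters load them into the xylem. Receptor kinases of the CrRLK1L family sense the state of the wall, and the small secreted RALF peptides are ligands of several of them.

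Each root library held 14031146 to 16603269 counted reads, against 15544918 to 17019602 in leaf, 12499775 to 14630502 in stamen and 12696715 to 13886363 in pistil. Levels of a gene across tissues are given as counts scaled to a common library size (CPM) after trimmed-mean (TMM) scaling, and levels between genes as the authors' FPKM, which is per length. The reads of a gene with 0 reads in a tissue were set at a floor of 3 reads over the 3 libraries, so that folds over it are lower bounds, and floors cover counting error only. Levels are given as mean ± SD over the 3 libraries of a tissue (n = 3) where single libraries are not listed, and a median in brackets is that of the same list with such genes set at the floor, where it differed. Medians of lists leave out root-only genes. Across the 35954 tested genes, the mean level in root ranked most like that in pistil (Spearman's rho 0.638), then leaf (0.600) and stamen (0.447), as a description over genes. The tissue labels were checked against marker lists. The 56 photosystem and light-harvesting genes summed to 26.1 to 27.98 CPM in root, against 71992 to 84881 CPM in leaf, 142 to 242 CPM in stamen and 1178 to 1673 CPM in pistil. The lists taken as root markers, of peroxidases, the Casparian strip, root hairs and nitrate uptake, are given below with and without root-only genes. Seed storage and glyoxylate genes summed to 80.1 to 105 CPM in root, most of it from a peroxygenase 5 title (CqNL-6_030521, mean 92.3 CPM). They summed to 0.383 to 1.61 CPM in leaf, 12452.5 to 12887.8 CPM in stamen and 287 to 419 CPM in pistil. Pollen and anther genes summed to 868 to 1186 CPM in root and 863 to 1163 CPM in pistil. In leaf their sum was 163 to 194 CPM, and in stamen 27319 to 28999 CPM. The scaling factors were 1.36 to 1.42 in root, 0.835 to 0.850 in leaf, 0.477 to 0.494 in stamen and 1.73 to 1.78 in pistil, and their part in the results is given beside the counts.

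Root had more genes highest than lowest, though a gene with 0 reads in another tissue could be called highest but not lowest. Of the tested genes, 10.4% (3730) were highest in root and 6.02% (2163) were lowest, by edgeR's quasi-likelihood test at an adjusted p under 0.05 in all 3 pairs. With the total library size in place of TMM, the median log2 fold change of root against the mean of the others was 0.64 rather than 0.00 (0.04 to 0.07 with 2 other scalings), 4546 genes were highest and 1184 lowest, and the share of highest calls among both was 79.3% against 63.3% with TMM. Of the 3730 genes, 3505 were also highest with the total library size, and of the 2163 genes, 1128 were also lowest. Against single tissues, with at least a 2-fold difference, 8534 genes were higher and 8066 lower in root than in leaf, 13118 higher and 11081 lower than in stamen, and 7505 higher and 9871 lower than in pistil.

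Against the mean log level of the 3 other tissues, 13964 genes (38.8%) were higher and 12071 (33.6%) lower in root. A very low level in any tissue lowers this mean, and 6165 of the 13964 had a higher mean CPM in another tissue than in root, while all 3730 highest genes were among the 13964. A gene with 0 reads in another tissue could not be called lower than the mean, and of the 4422 such tested genes 0 were called lower and 2455 higher. Because a gene higher than the mean need not be highest in root, the calls highest and lowest are used below. Log2 fold changes against the mean are given for lists. A gene with 0 reads in another tissue could not be called lowest in root either, while it could be called highest. Among the genes highest in root, the next highest level was in pistil for 1252, in leaf for 1043 and in stamen for 1032, and 403 had no read in any of the 9 other libraries. For the 3327 genes with a read elsewhere, the smallest log2 fold change over the 3 pairs had a median of 2.71, and for 762 of them it was at least 5.

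The 3 root libraries were alike but not equal in these genes. Of the 1361 genes highest in root with a mean of at least 20 CPM there, 1002 had their highest level in root replicate 3. Another 259 had it in replicate 1 and 100 in replicate 2. The same count was not made over all tested genes, so it is not shown to be particular to these genes. The coefficient of variation of the 1361 genes over the root libraries had a median of 11.1%, against 7.31% for all 8551 tested genes of at least 20 CPM in root. Without root replicate 3, 3656 genes were highest in root. Of the 100 genes with the highest FPKM in root, 47 were highest in root, and 47 carried an informative title. Among the titled ones were a pathogenesis-related protein (CqNL-6_026278, 1554 ± 149 FPKM in root, SD, n = 3) and a cytosolic glutamine synthetase (CqNL-6_033117, 1342 ± 89.1 FPKM), the enzyme that assimilates ammonium, named here after its level was seen.

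The 702 root-only genes were 1.20% of all genes and held 0.442 to 0.497% of the reads of a root library. Most were low: the median of their mean FPKM was 1.89, 117 reached 10 FPKM, and the highest, an untitled gene (CqNL-6_039511), had 186, 312 and 427 FPKM in root replicates 1, 2 and 3. An informative title was held by 37.8% of them (265), against 24.0% of all genes. Their median length was 834 bases, against 1076 for all genes and 1535 for all genes read in the 3 root libraries. They were chosen on these reads, so that their absence elsewhere is the rule and carries no test.

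Just inside the rule, 87 genes had a single read in at least 1 root library, with a median of 2.33 reads per library. Just outside it, 225 genes were read in all root libraries and had 1 read in the 9 others (43 in leaf, 71 in stamen, 111 in pistil), with a median of 30.7 reads per root library, and 67 of these had at least 100. Another 177 genes with 0 reads elsewhere were read in 2 of the 3 root libraries, with a median of 1.33 reads. Of the 702, 403 passed the read filter of the test, and all of those passed it through root alone and were called highest in root, as the rule fixes. Without them, 3327 of 35551 tested genes (9.36%) were highest in root. Genes with a few reads elsewhere, such as the 225 with 1 read, could also pass the filter through root alone. They were not taken out, so that counts without root-only genes still hold such genes. Most gene lists below draw on titled genes only. Of the 3730 genes highest in root, 1319 were titled, against 14072 of all 58522 genes. The shares among all tested genes are therefore not those of titled genes alone. Beside the counts of gene lists below, parentheses give the count without root-only genes, and the counts with the total library size where these moved by over 1.5 times.

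The second highest root-only gene was CqRALF18 (CqNL-6_008333, chromosome 3, 18851409 to 18851702), a RALF peptide gene, with 232, 256 and 367 FPKM in the 3 root libraries and 0 reads in the other 9. Of titled root-only genes, each title is given by its highest gene. The highest was a cornifin-A-like gene (CqNL-6_006760), with 93.9, 126 and 159 FPKM, and another of that title (CqNL-6_006761) had 58.7, 71.2 and 97.7 FPKM. The next title was Peroxidase 60 (CqNL-6_007132), a secreted peroxidase, with 57.1, 63.2 and 76.5 FPKM. All 3 were lowest in root replicate 1. A gene with a palladin-like title, whose deposited KEGG entry is peroxidase (CqNL-6_046200), had 47.0, 56.1 and 68.2 FPKM. A lipoxygenase homology domain title (CqNL-6_054093) had 33.5, 60.1 and 67.6 FPKM. A pathogenesis-related protein 1C-like gene (CqNL-6_032699) went the other way, with 73.9, 42.5 and 28.8 FPKM, its highest in replicate 1 and its lowest in replicate 3. A title of the iron-deficiency factor FIT, a bHLH protein that in Arabidopsis switches on iron uptake in the root epidermis (CqNL-6_047621), had 31.5, 28.7 and 34.1 FPKM, which was even over the 3 libraries.

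The other titles among the 12 highest were a cold shock-like protein cspC, a ribosome-inactivating protein, a remorin, a BURP domain protein, a gibberellin-regulated protein 6 and a 23 kDa jasmonate-induced protein, between 32.2 and 44.4 FPKM on average. The plot of FPKM in the root libraries shows how far they lay apart from each other.

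**Figure D1:**
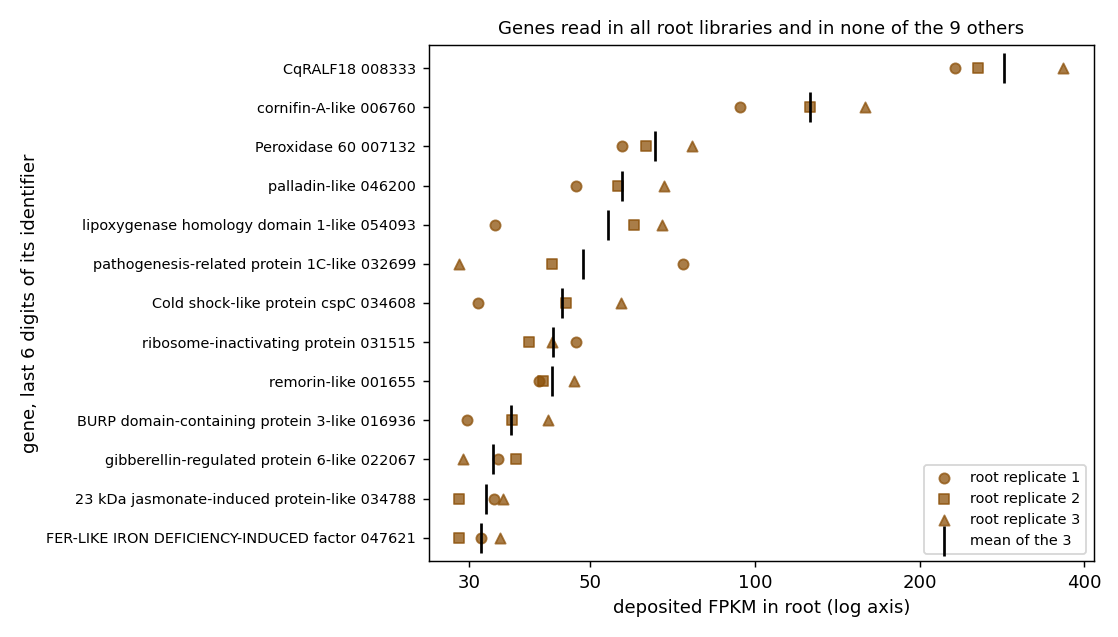
Deposited FPKM (log axis) of CqRALF18 and the highest gene of each of the 12 root-only titles with the highest mean, 1 symbol per root library and a bar at the mean of the 3; all had 0 reads in the 9 leaf, stamen and pistil libraries. CqRALF18 lies highest, at 285 FPKM on average, and the FIT title lowest of the 13 shown, at 31.5 FPKM.

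Several root-only titles name parts of the root, and were picked out after their values were seen. Other root-only titles name no part of the root, such as transcription factor MUTE (2 genes, 0.365 and 0.669 FPKM on average). The titles as a set were therefore not shown to follow the parts of the root. BEARSKIN1, a NAC factor of the root cap in Arabidopsis, was the title of 3 root-only genes, the highest of them (CqNL-6_031609) with 3.86, 3.26 and 3.39 FPKM. WUSCHEL-related homeobox 5, which marks the quiescent centre of the Arabidopsis root tip, was the title of 2, of which CqNL-6_010059 had only 11, 20 and 10 reads. Casparian strip membrane protein 2, which builds the scaffold of the strip, was the title of 2 genes, with 34.5, 28.1 and 29.3 FPKM (CqNL-6_046161, chromosome 3) and 20.5, 14.6 and 19.0 FPKM (CqNL-6_020840, chromosome 13). MIZU-KUSSEI 1, needed in Arabidopsis for root bending towards water, had 9.79, 10.0 and 11.7 FPKM (CqNL-6_038944). Carotenoid cleavage dioxygenase 8, an enzyme of strigolactone synthesis, was the title of 2 genes, with 2.20 and 0.727 FPKM on average. The ethylene synthesis enzyme 1-aminocyclopropane-1-carboxylate synthase 7 was the title of 2, with 3.34 and 3.33 FPKM on average.

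Expansin-A7, a root hair expansin in Arabidopsis, was the title of 5 root-only genes, and they lay in 2 places. On chromosome 9, 3 of them spanned 59.3 kb, and on chromosome 2 the other 2 spanned 19.4 kb, and both groups lay next to a pair of uncharacterised genes with the same titles (SOVF_098550 and SOVF_098540). The levels in root were 9.58, 5.94 and 3.83 FPKM for the genes on chromosome 9 and 10.0 and 5.93 FPKM for those on chromosome 2. The flanking SOVF_098540 gene was lowest in root on both, with 0.302 FPKM in root, against 316, 2.80 and 23.5 FPKM in leaf, stamen and pistil on chromosome 9 and 0.695 FPKM in root, against 356, 6.31 and 31.2 FPKM in leaf, stamen and pistil on chromosome 2. Genes of 1 title may share reads, and the sources used here do not say how a read with several matches was counted.

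Of the root-only genes, 143 (20.4%) lay next to another root-only gene, while 2.12% of all other genes lay next to one. They formed 65 runs of 2 or more, the longest of 4 untitled genes on chromosome 14. Over the 18 numbered chromosomes they made up 0.631% (chromosome 5) to 1.75% (chromosome 14) of the genes. Of the genes highest in root, 997 (26.7%) lay next to another such gene, against 11.04% of all other genes, and the longest runs, 9 in number, held 5. Of the 283 root-only genes with gene ontology terms, 12.7% carried the extracellular region, 6.01% nutrient reservoir activity and 6.01% manganese ion binding, against 1.54%, 0.443% and 0.407% of all 25525 annotated genes. Heme binding was held by 6.36%, against 2.06%, and the chloroplast thylakoid membrane by 0, against 0.490%. No test was run on these shares, since the genes were chosen on their reads and related genes are not independent.

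Of the expansins, 12 of 19 tested members were highest in root and 1 lowest (6 of 13 highest without root-only genes), beside the 10.4% highest among all tested genes. All 6 root-only members are thus in the first count, and the 13 others had a median log2 fold change against the mean of 1.26 [0.45], beside -0.02 [-0.05] for all tested genes but the root-only ones. Of the XTHs, 7 of 10 were highest and none lowest (5 of 8 highest without root-only genes), with a median of 6.52. An XTH 26 title (CqNL-6_031396) had 414, 574 and 786 CPM in root, against 0, 0.349 and 0.282 CPM in leaf, 0, 0.440 and 0 in stamen and 0, 0.0442 and 0.0836 CPM in pistil. An XTH gene of nearly the same level in root (CqNL-6_047653) had 502, 466 and 660.2 CPM in root, against 1.76, 1.33 and 0.845 CPM in leaf, 2.71, 1.91 and 2.52 in stamen and 11.9, 10.9 and 14.0 CPM in pistil, a log2 fold change of 5.47 ± 0.18 (SE) against pistil, the nearest of the 3 (edgeR adjusted p = 1.99e-14). Neither overlapped with any other tissue, and both were highest in root replicate 3. Their FPKM in root was 740.7 ± 219 FPKM and 735 ± 122 FPKM (SD, n = 3).

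An expansin-A7-like gene (CqNL-6_005100) that was not root-only had 111, 141 and 191 CPM in root, and 4, 2 and 5 reads in leaf, stamen and pistil. An expansin-A4-like gene (CqNL-6_051662) had 46.3, 34.0 and 26.4 CPM in root and 1 read, in pistil, elsewhere, and, unlike the XTHs, it was lowest in root replicate 3. A beta-expansin (CqNL-6_001821) had 26.5 ± 1.81 CPM in root, against 0 reads in leaf, 0.0559 ± 0.0969 CPM in stamen and 3.11 ± 1.61 CPM in pistil. The member lowest in root was an expansin-A2-like gene (CqNL-6_027238), with 0.488 ± 0.239 CPM in root, against 16.0 ± 2.84 CPM in leaf, 23.7 ± 4.95 CPM in stamen and 3.26 ± 0.931 CPM in pistil, a log2 fold change of -2.75 ± 0.34 (SE) against pistil, the nearest of the 3 (edgeR adjusted p = 8.27e-07).

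Other wall genes were divided. Of the extensins, arabinogalactan and proline-rich proteins, 3 of 32 tested members were highest in root and 4 lowest, with a median of 0.10 [-0.37]. The share highest was 9.38%, near the 10.4% of all tested genes. An extensin-like gene (CqNL-6_008827) had 86.03, 73.3 and 42.7 CPM in root and 0 to 2 reads in each other tissue, while a proline-rich protein 4 title (CqNL-6_019848) had 0.0313 ± 0.0275 CPM in root, against 372 ± 27.1 CPM in leaf, 4.27 ± 2.79 CPM in stamen and 2.08 ± 0.806 CPM in pistil. Of the cellulose synthases and COBRA proteins, 5 of 15 tested members were highest in root and 1 lowest (8 highest and 0 lowest with the total library size). The cellulose synthase-like D3 title, of a gene that builds tip-growing root hairs in Arabidopsis (CqNL-6_021214), had 101.1 ± 8.20 CPM in root, against 17.4 ± 4.31 CPM in leaf, 19.1 ± 2.53 CPM in stamen and 11.6 ± 2.96 CPM in pistil, a log2 fold change of 2.41 ± 0.19 (SE) against stamen, the nearest of the 3 (edgeR adjusted p = 1.22e-09). COBRA, which orients cell expansion in the Arabidopsis root (CqNL-6_009742), had 11.2 ± 0.650 CPM in root, against 0.357 ± 0.110 CPM in leaf, 0.191 ± 0.217 CPM in stamen and 0.657 ± 0.148 CPM in pistil.

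**Figure D2:**
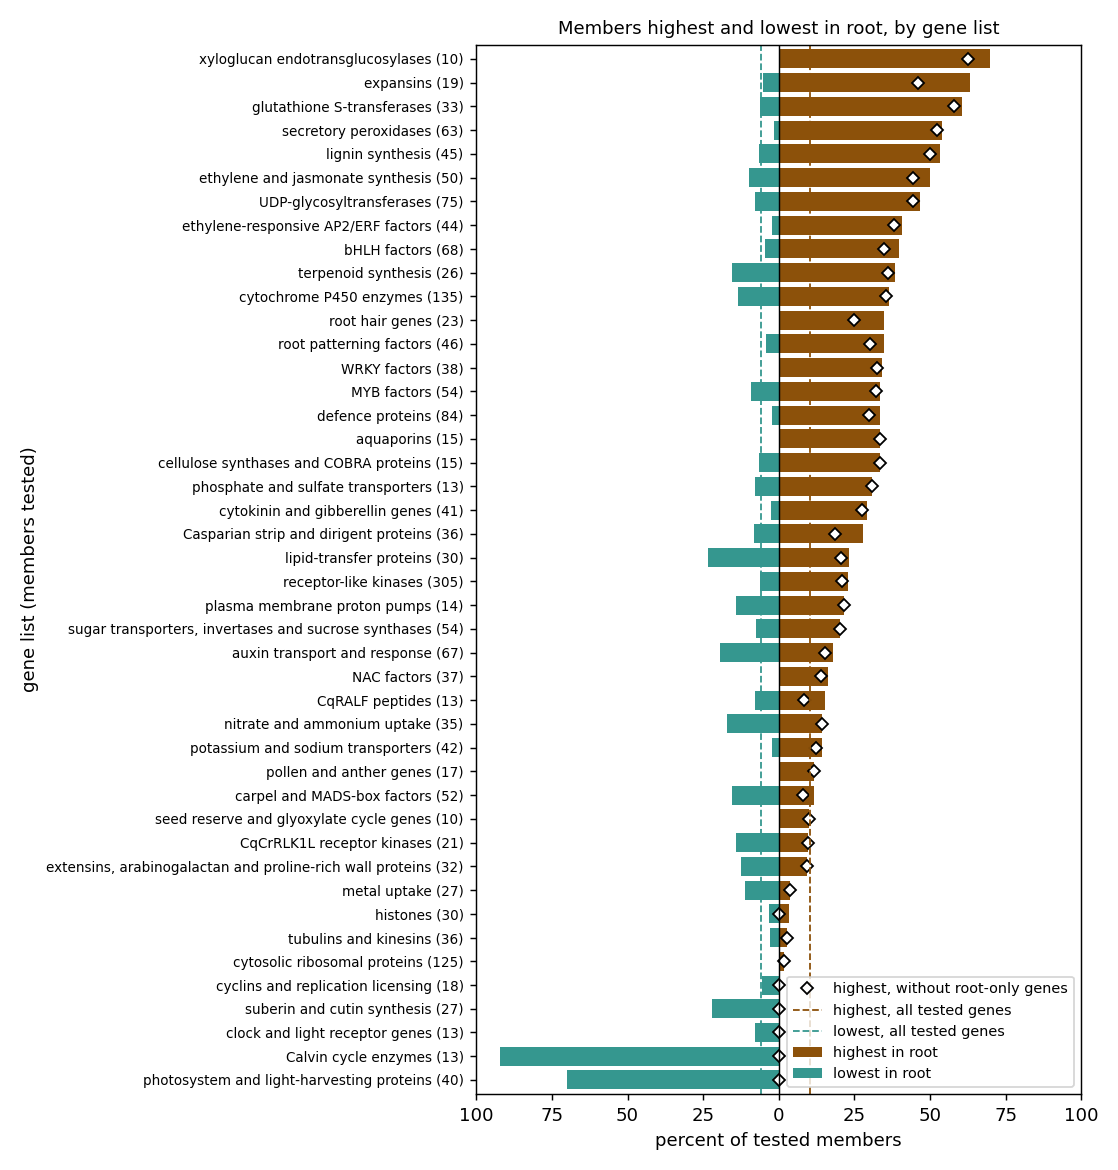
Percent of the tested members of each gene list that were highest in root (right, brown) or lowest in root (left, green), for lists with at least 10 tested members, whose number stands in parentheses; diamonds mark the percent highest without root-only genes, and dashed lines mark 10.4% and 6.02%, the shares among all 35954 tested genes. With root-only genes, which the rule calls highest, XTHs (70.0%) and expansins (63.2%) stand at the top. Without them XTHs (62.5%) still had the largest share. Expansins (46.2%) then lay below glutathione S-transferases (58.1%), secreted peroxidases (52.5%) and lignin synthesis genes. Calvin cycle enzymes (92.3% lowest) and photosystem proteins (70.0% lowest) stand at the bottom.

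Secreted class III peroxidases, which cross-link or cleave wall phenolics with hydrogen peroxide, were among the groups with the most genes highest in root. Of the 63 tested by title, 34 were highest and 1 lowest (32 of 61 highest without root-only genes), with a median log2 fold change of 5.39 [4.29]. Without root-only genes their share highest was 52.5%, beside 9.36% of all tested genes. By the deposited KEGG entry for peroxidase, which also takes in 86 untitled genes, 72 of 142 tested genes were highest (62 of 132 without root-only genes), 6 were lowest, and 13 of 187 were root-only. Peroxidase 12-like (CqNL-6_002703) had 736, 787 and 921.5 CPM in root, against 0.153, 0.140 and 0.211 CPM in leaf, 0.143, 0.440 and 0.336 in stamen and 3.24, 0.707 and 3.72 CPM in pistil, a log2 fold change of 8.31 ± 0.33 (SE) against pistil, the nearest of the 3 (edgeR adjusted p = 1.90e-13). A peroxidase 57-like gene (CqNL-6_012781) had 619.7, 558 and 692 CPM in root, against 0.0766, 0.140 and 0 CPM in leaf, 6.13, 2.49 and 2.35 in stamen and 0.360, 0.177 and 0.293 CPM in pistil. Another gene of that title (CqNL-6_018587) had 245, 330.4 and 460.4 CPM in root, its highest in replicate 3, and 1 read in leaf, 0 in stamen and 1 in pistil. Peroxidase 44-like (CqNL-6_007138) had 158, 203 and 248 CPM in root and 3, 0 and 1 reads in leaf, stamen and pistil. The summed level of the list was 5211 to 6475 CPM in root, against 194 to 256 CPM in leaf, 27848 to 30331 in stamen and 773 to 1074 CPM in pistil, so that the sum was highest in stamen. With the total library size the sum was 7373 to 8828 CPM in root, against 13278 to 14539 CPM in stamen, which was again the higher of the pair. The member lowest in root (CqNL-6_046806) had 0.0168 ± 0.0291 CPM in root, against 9.58 ± 1.39 CPM in leaf, 0.439 ± 0.640 CPM in stamen and 17.5 ± 3.21 CPM in pistil, a call that was lost without stamen replicate 2.

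Genes of lignin synthesis were also often highest in root: 24 of 45 tested members were highest in root and 3 lowest (21 of 42 highest without root-only genes), and the median log2 fold change was 2.39. The share highest was 53.3%, beside 10.4% of all tested genes. Trans-cinnamate 4-monooxygenase, an early enzyme of the phenylpropanoid path (CqNL-6_003494), had 433, 407 and 457 CPM in root, against 52.8, 51.3 and 44.3 CPM in leaf, 119, 88.1 and 99.2 in stamen and 53.6, 46.6 and 51.3 CPM in pistil, a log2 fold change of 2.08 ± 0.13 (SE) against stamen, the nearest of the 3 (edgeR adjusted p = 4.19e-11). Cinnamoyl-CoA reductase 1-like (CqNL-6_032751) had 92.9 ± 14.5 CPM in root, against 13.4 ± 1.51 CPM in leaf, 0.292 ± 0.389 CPM in stamen and 5.74 ± 0.340 CPM in pistil, and cinnamyl alcohol dehydrogenase 1 (CqNL-6_018184) had 80.8 ± 10.7 CPM in root, against 9.203 ± 1.88 CPM in leaf, 15.1 ± 0.881 CPM in stamen and 11.95 ± 2.40 CPM in pistil. A caffeic acid 3-O-methyltransferase-like gene (CqNL-6_044229) was lowest in root, with 1.23 ± 0.216 CPM in root, against 2.87 ± 0.781 CPM in leaf, 188 ± 8.67 CPM in stamen and 6.85 ± 1.002 CPM in pistil, but not with the total library size.

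Casparian strip and dirigent proteins place and polymerise lignin in the endodermis. Of these, 10 of 36 tested members were highest in root and 3 lowest (6 of 32 highest without root-only genes), 5 were root-only, and the median was 0.86 [0.26]. Without root-only genes their share highest was 18.8%, beside 9.36% of all tested genes. The CASP-like protein Ni6 title (CqNL-6_055150) had 37.2, 41.8 and 49.1 CPM in root, against 0, 0.210 and 0.422 CPM in leaf, 0.713, 0.440 and 0 in stamen and 0.674, 1.72 and 0.919 CPM in pistil, a log2 fold change of 5.26 ± 0.28 (SE) against pistil, the nearest of the 3 (edgeR adjusted p = 8.33e-12). Casparian strip membrane protein 3 (CqNL-6_013459) had 10.1 ± 3.13 CPM in root, against 0 reads in leaf, 0.224 ± 0.387 CPM in stamen and 0 reads in pistil, and was not called with DESeq2's Wald test. Members titled CASP-like 1F2 (CqNL-6_042267) and 4B1 (CqNL-6_046270) were lowest in root and peaked in stamen, with 0.0981 and 1.33 CPM in root, against 219.7 and 109 CPM in stamen. Suberin and cutin enzymes, which make the lipid barriers of root and shoot surfaces, were seldom highest in root: none of 27 tested was, 6 were lowest, and the median was -0.999, or -0.37 with the total library size. Against the mean, 10 of them were higher and 11 lower. A further 2 members, both with a cytochrome P450 86B1-like title, were root-only at 0.0909 and 0.522 FPKM on average, below the read filter. A cytochrome P450 86B1-like gene (CqNL-6_016598) had 0, 0.0423 and 0 CPM in root, against 1.38, 0.908 and 1.27 CPM in leaf, 450.3, 449 and 407 in stamen and 15.2, 8.97 and 11.3 CPM in pistil.

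**Figure D3:**
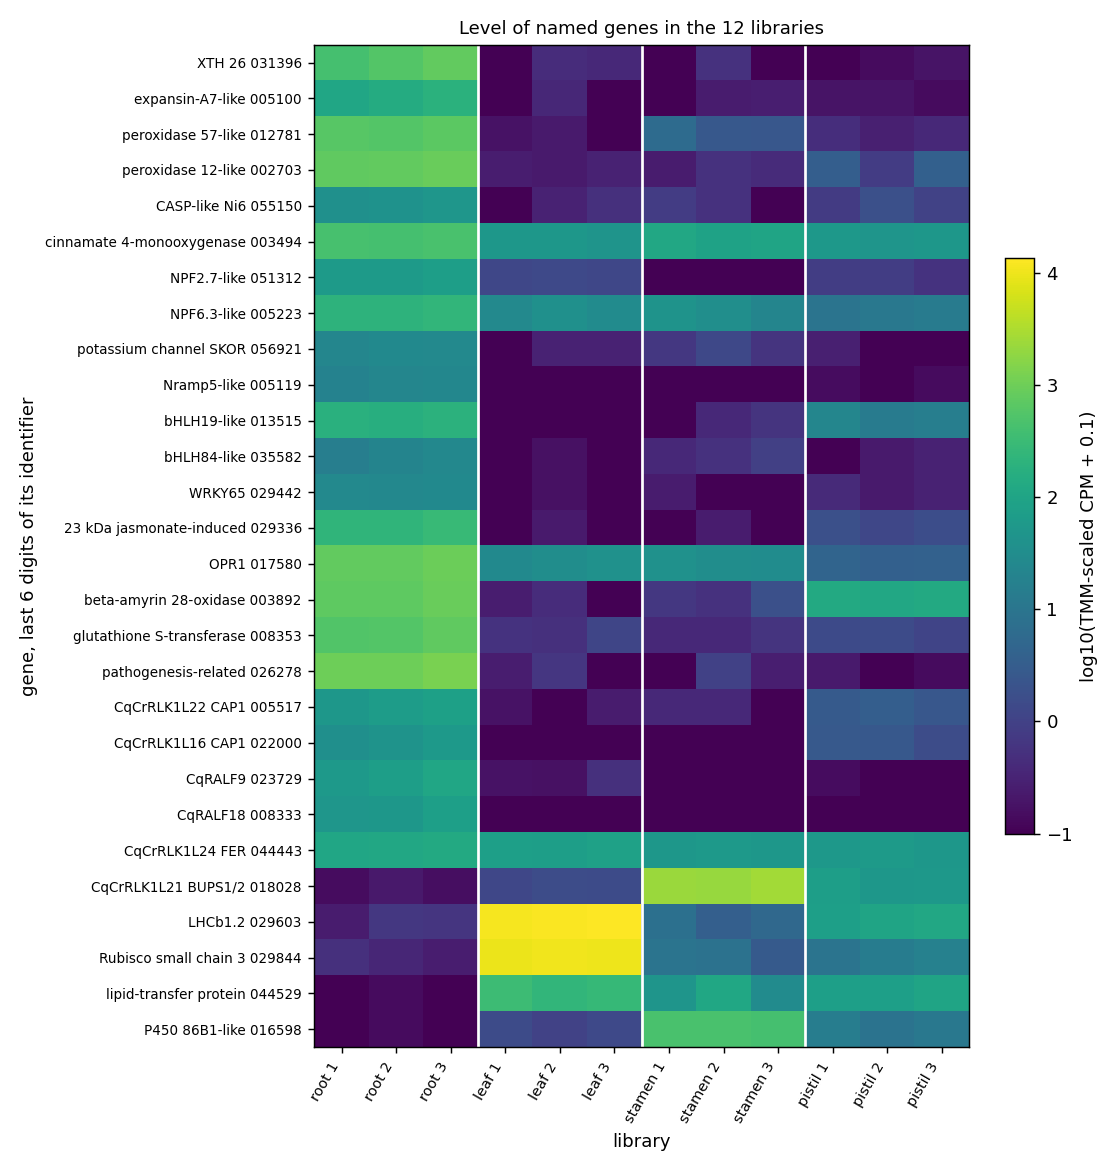
Level of the named genes in the 12 libraries (columns, 3 each of root, leaf, stamen and pistil), as log10 of TMM-scaled CPM plus 0.1, with 1 row per gene. The upper rows are high in the 3 root columns and near the lower end of the scale elsewhere, bHLH19-like and beta-amyrin 28-oxidase have a second, lower level in pistil, and the last 5 rows (BUPS1/2, LHCb1.2, Rubisco small chain, lipid-transfer protein and P450 86B1-like) are lowest in root.

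Nutrient transporters were mixed. Of the nitrate and ammonium transporters, 5 of 35 tested members were highest in root and 6 lowest (11 highest and 3 lowest with the total library size). The median was 0.72, and the share highest was 14.3%, beside 10.4% of all tested genes. NPF6.3-like, whose Arabidopsis counterpart is the nitrate transporter and sensor NRT1.1 (CqNL-6_005223), had 204, 208 and 235 CPM in root, against 26.3, 37.5 and 29.3 CPM in leaf, 42.9, 34.6 and 21.3 in stamen and 9.44, 11.3 and 13.3 CPM in pistil, a log2 fold change of 2.70 ± 0.20 (SE) against stamen, the nearest of the 3 (edgeR adjusted p = 3.65e-10). NPF2.7-like, in Arabidopsis a root nitrate excretion transporter (CqNL-6_051312), had 61.9, 62.1 and 75.4 CPM in root, against 1.15, 1.26 and 1.13 CPM in leaf, 0, 0 and 0 in stamen and 0.764, 0.751 and 0.460 CPM in pistil, a log2 fold change of 5.81 ± 0.18 (SE) against leaf, the nearest of the 3 (edgeR adjusted p = 3.08e-14). NPF7.3-like (CqNL-6_000860) was lowest in root, with 0.0680 ± 0.0589 CPM in root, against 3.40 ± 0.467 CPM in leaf, 636 ± 44.1 CPM in stamen and 22.5 ± 6.02 CPM in pistil. For phosphate, PHO1, which in Arabidopsis loads phosphate into the xylem (CqNL-6_037314), had 108 ± 12.7 CPM in root, against 4.46 ± 1.23 CPM in leaf, 20.4 ± 5.20 CPM in stamen and 2.97 ± 0.515 CPM in pistil, a log2 fold change of 2.40 ± 0.18 (SE) against stamen, the nearest of the 3 (edgeR adjusted p = 6.12e-10), and 4 of 13 tested phosphate and sulfate transporters were highest in root (4 highest and 0 lowest with the total library size).

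Of the potassium and sodium transporters, 6 of 42 tested members were highest in root and 1 lowest (5 of 41 highest without root-only genes, and 7 highest and 0 lowest with the total library size). The median was -2.75 [-2.50], and the share highest without root-only genes was 12.2%, near the 9.36% of all tested genes. The outward potassium channel SKOR, which in Arabidopsis releases potassium into the root xylem (CqNL-6_056921), had 22.7, 27.1 and 25.7 CPM in root, against 0, 0.210 and 0.211 CPM in leaf, 0.570, 1.17 and 0.503 in stamen and 0.180, 0 and 0 CPM in pistil, a log2 fold change of 5.04 ± 0.35 (SE) against stamen, the nearest of the 3 (edgeR adjusted p = 1.95e-10). A sodium transporter HKT1-like gene (CqNL-6_033644) had 4.78, 6.39 and 6.46 CPM in root, 0.570, 0.880 and 0.671 CPM in stamen and 0 reads in leaf and pistil, at least 81.5-fold higher than in leaf and at least 135-fold higher than in pistil. Potassium transporter 4 (CqNL-6_045797) had 115 ± 16.6 CPM in root, against 21.8 ± 1.62 CPM in leaf, 6.89 ± 2.31 CPM in stamen and 20.4 ± 0.881 CPM in pistil. Of metal transporters, 1 of 27 was highest in root (2 highest and 2 lowest with the total library size), an Nramp5-like gene, in rice the manganese uptake carrier of the root (CqNL-6_005119), with 19.0, 22.5 and 23.3 CPM in root and 2 reads, in pistil, elsewhere. That share lay below the 10.4% of all genes.

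Proton pumps energise uptake. Of 14 tested, 3 were highest in root and 2 lowest (5 highest and 1 lowest with the total library size). Among all tested genes, 10.4% were highest and 6.02% lowest. Plasma membrane ATPase 4 (CqNL-6_032231) had 186 ± 66.3 CPM in root, against 7.93 ± 1.26 CPM in leaf, 2.94 ± 0.772 CPM in stamen and 4.31 ± 0.802 CPM in pistil, a log2 fold change of 4.54 ± 0.24 (SE) against leaf, the nearest of the 3 (edgeR adjusted p = 3.61e-12). The ATPase 11-like gene (CqNL-6_055901) was lowest in root, with 8.88 ± 1.68 CPM in root, against 20.2 ± 2.47 CPM in leaf, 75.7 ± 3.50 CPM in stamen and 25.6 ± 1.62 CPM in pistil, but not with the total library size. Of the aquaporins, 5 of 15 were highest in root and 0 lowest. They included NIP5-1, a boric acid channel of the Arabidopsis root (CqNL-6_005117, 4.49 ± 1.18 CPM in root, against 0.0954 ± 0.106 CPM in leaf, 0 reads in stamen and 0 reads in pistil). The median of the aquaporins was -0.70, against -0.06 with the total library size. A gene titled PIP1, an aquaporin name (CqNL-6_010830), was outside this list and so outside these counts and the median. It was also highest in root, at 1116 ± 48.7 FPKM.

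Several title lists of transcription factors were often highest in root. By the gene ontology term for DNA-binding transcription factor activity the excess was smaller. Of 298 tested genes with it, 46 were highest, beside 2173 of all 21207 tested genes with such terms. Of the bHLH factors, 27 of 68 tested members were highest in root and 3 lowest (22 of 63 highest without root-only genes), 8 were root-only, and the median was 1.69 [1.57]. Of the ethylene-responsive AP2/ERF factors, 18 of 44 tested members were highest in root and 1 lowest (16 of 42 highest without root-only genes, and 22 highest and 0 lowest with the total library size). Of the WRKY factors, 13 of 38 tested members were highest in root and 0 lowest (12 of 37 highest without root-only genes). Of the MYB factors, 18 of 54 tested members were highest in root and 5 lowest (17 of 53 highest without root-only genes, and 21 highest and 2 lowest with the total library size). Of the NAC factors, 6 of 37 tested members were highest in root and 0 lowest (5 of 36 highest without root-only genes, and 11 highest and 0 lowest with the total library size). Without root-only genes the NAC share was 13.9%, beside 9.36% of all tested genes. WRKY65 (CqNL-6_029442) had 25.8, 24.9 and 27.2 CPM in root, against 0, 0.0699 and 0 CPM in leaf, 0.143, 0 and 0 in stamen and 0.315, 0.133 and 0.209 CPM in pistil, a log2 fold change of 6.85 ± 0.26 (SE) against pistil, the nearest of the 3 (edgeR adjusted p = 9.27e-14). The ERF title RAP2-3, of a factor of the low-oxygen response in Arabidopsis (CqNL-6_051180), had 113 ± 8.38 CPM in root, against 3.96 ± 1.11 CPM in leaf, 35.2 ± 2.41 CPM in stamen and 7.56 ± 1.28 CPM in pistil, a log2 fold change of 1.68 ± 0.14 (SE) against stamen, the nearest of the 3 (edgeR adjusted p = 4.38e-09). A bHLH143-like gene (CqNL-6_010307) had 226 ± 31.1 CPM in root, against 39.3 ± 4.12 CPM in leaf, 22.3 ± 1.06 CPM in stamen and 58.1 ± 10.1 CPM in pistil. MYB factors titled myb-related 306 (CqNL-6_022069 and CqNL-6_037996) were lowest in root, the first with 0 reads there and the other with 0.199 ± 0.113 CPM in root, against 8.12 ± 0.288 CPM in leaf, 12.1 ± 2.96 CPM in stamen and 17.5 ± 3.82 CPM in pistil.

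Of the root hair genes, 8 of 23 tested members were highest in root and 0 lowest (5 of 20 highest without root-only genes). The titles bHLH84, bHLH86 and bHLH54 belong to the RSL factors that set root hair growth in Arabidopsis. The bHLH84-like gene (CqNL-6_035582) had 15.9, 20.7 and 25.0 CPM in root, against 0, 0.0699 and 0 CPM in leaf, 0.285, 0.440 and 0.839 in stamen and 0, 0.133 and 0.209 CPM in pistil, a log2 fold change of 5.32 ± 0.39 (SE) against stamen, the nearest of the 3 (edgeR adjusted p = 3.49e-10). The bHLH086 gene (CqNL-6_000752) was root-only, with 11.1, 10.3 and 7.12 FPKM, and the bHLH54-like gene (CqNL-6_051486) had 6.15 ± 1.03 CPM in root, against 0 reads in leaf, 0.199 ± 0.216 CPM in stamen and 0.0439 ± 0.0450 CPM in pistil. Of the root patterning factors, 16 of 46 tested members were highest in root and 2 lowest (13 of 43 highest without root-only genes, and 19 highest and 1 lowest with the total library size), and the median was 1.86 [1.85]. They included LOB domain protein 29, which acts in lateral root initiation in Arabidopsis (CqNL-6_006163, 7.12 ± 0.605 CPM in root, against 0.141 ± 0.244 CPM in leaf, 0.0475 ± 0.0823 CPM in stamen and 0 reads in pistil), and an AP2-like factor (CqNL-6_008988, 22.8 ± 1.58 CPM in root, against 3.28 ± 0.649 CPM in leaf, 0.145 ± 0.147 CPM in stamen and 1.94 ± 0.157 CPM in pistil). Of the MADS-box and carpel factors, 6 were highest and 8 lowest of 52 (4 of 50 highest without root-only genes). Without root-only genes their share highest was 8.0%, below the 9.36% of all tested genes. Among the highest was AGL12, a MADS factor of the Arabidopsis root (CqNL-6_017588), with 3.60 ± 0.465 CPM in root, against 0.539 ± 0.530 CPM in leaf, 0 reads in stamen and 0.0723 ± 0.0238 CPM in pistil, a log2 fold change of 2.69 ± 0.47 (SE) against leaf, the nearest of the 3 (edgeR adjusted p = 8.81e-05).

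Hormone genes differed by pathway, and are set beside 10.4% highest and 6.02% lowest among all tested genes. Of the ethylene and jasmonate genes, 25 of 50 tested members were highest in root and 5 lowest (20 of 45 highest without root-only genes, and 26 highest and 3 lowest with the total library size). Of the list, 6 were root-only, and the median was 2.16. The list was drawn on title words, and not all its members are enzymes of synthesis. It took in 23 kDa jasmonate-induced protein and lipoxygenase homology domain titles. A 12-oxophytodienoate reductase 1 title (CqNL-6_017580) had 796, 799 and 964 CPM in root, against 27.4, 33.3 and 39.2 CPM in leaf, 39.9, 32.4 and 31.7 in stamen and 4.50, 3.58 and 3.89 CPM in pistil, a log2 fold change of 4.62 ± 0.17 (SE) against stamen, the nearest of the 3 (edgeR adjusted p = 1.86e-14). In Arabidopsis this title belongs to a reductase outside the main jasmonate route. A 23 kDa jasmonate-induced protein-like gene (CqNL-6_029336) had 227, 222 and 279 CPM in root, against 0, 0.140 and 0 CPM in leaf, 0, 0.147 and 0 in stamen and 1.71, 1.15 and 1.55 CPM in pistil, a log2 fold change of 7.36 ± 0.20 (SE) against pistil, the nearest of the 3 (edgeR adjusted p = 2.09e-15). The plastid lipoxygenase 2-1 title, of an early step of jasmonate synthesis (CqNL-6_044385), was lowest in root, with 0.167 ± 0.112 CPM in root, against 476 ± 24.8 CPM in leaf, 8.46 ± 2.63 CPM in stamen and 218 ± 20.8 CPM in pistil, and a jasmonate O-methyltransferase-like gene (CqNL-6_010570) had 0 reads there.

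Of the auxin genes, 12 of 67 tested members were highest in root and 13 lowest (10 of 65 highest without root-only genes), and the median was -0.47, which was 0.18 with the total library size. The shares were 17.9% highest and 19.4% lowest, beside 10.4% and 6.02% of all tested genes. An auxin efflux carrier title, PIN 1c (CqNL-6_043662), had 29.5 ± 3.68 CPM in root, against 9.54 ± 2.18 CPM in leaf, 10.8 ± 0.829 CPM in stamen and 2.07 ± 0.278 CPM in pistil, a log2 fold change of 1.45 ± 0.17 (SE) against stamen, the nearest of the 3 (edgeR adjusted p = 2.29e-07), and an auxin transporter-like 4 gene (CqNL-6_051654) had 13.1 ± 1.80 CPM in root, against 2.90 ± 0.508 CPM in leaf, 1.49 ± 0.997 CPM in stamen and 1.92 ± 0.583 CPM in pistil. The auxin-repressed 12.5 kDa titles (CqNL-6_043612 and CqNL-6_003718) were lowest in root, the first with 0.227 ± 0.117 CPM in root, against 399.7 ± 89.6 CPM in leaf, 13.8 ± 9.18 CPM in stamen and 363 ± 34.3 CPM in pistil. Of the cytokinin and gibberellin genes, 12 of 41 tested members were highest in root and 1 lowest (11 of 40 highest without root-only genes, and 14 highest and 0 lowest with the total library size). A phosphoribohydrolase title of cytokinin activation (CqNL-6_032576) had 36.5 ± 13.3 CPM in root, against 14.8 ± 2.06 CPM in leaf, 0.0951 ± 0.165 CPM in stamen and 0.949 ± 0.187 CPM in pistil, and an ARR9-like response regulator (CqNL-6_027019) had 10.3 ± 2.43 CPM in root, against 0 reads in leaf, 0.159 ± 0.168 CPM in stamen and 0.0139 ± 0.0241 CPM in pistil.

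Many enzymes of specialised metabolism were highest in root, beside 10.4% highest and 6.02% lowest among all tested genes. Of the cytochrome P450s, 49 of 135 tested members were highest in root and 18 lowest (47 of 133 highest without root-only genes), with a median of 1.44 [1.32]. The P450 shares were 36.3% highest and 13.3% lowest, both above those of all tested genes. Of the UDP-glycosyltransferases, 35 of 75 tested members were highest in root and 6 lowest (32 of 72 highest without root-only genes), with a median of 2.85 [2.48]. Of the glutathione S-transferases, 20 of 33 tested members were highest in root and 2 lowest (18 of 31 highest without root-only genes, and 20 highest and 1 lowest with the total library size), with a median of 3.91. A glutathione S-transferase domain gene (CqNL-6_008353) had 537, 581 and 739 CPM in root, against 0.459, 0.419 and 1.06 CPM in leaf, 0.285, 0.293 and 0.503 in stamen and 1.35, 1.41 and 1.04 CPM in pistil, a log2 fold change of 8.92 ± 0.22 (SE) against pistil, the nearest of the 3 (edgeR adjusted p = 1.08e-15). A glycosyltransferase with an anthocyanin title (CqNL-6_030603) had 697, 635 and 805 CPM in root, against 0.153, 0.349 and 0.141 CPM in leaf, 0.143, 0.586 and 1.01 in stamen and 105, 86.1 and 100.1 CPM in pistil, a log2 fold change of 2.88 ± 0.15 (SE) against pistil, the nearest of the 3 (edgeR adjusted p = 1.10e-11). Of the terpenoid enzymes, 10 of 26 tested members were highest in root and 4 lowest (9 of 25 highest without root-only genes, and 10 highest and 2 lowest with the total library size), and the median was -1.79, below 0 although more members were highest than lowest. Beta-amyrin oxidases and lupeol synthases make and modify triterpenes, the backbone of the saponins for which quinoa is known. Beta-amyrin 28-oxidase-like (CqNL-6_003892) had 730.2, 709 and 884 CPM in root, against 0.153, 0.349 and 0 CPM in leaf, 0.570, 0.440 and 1.68 in stamen and 128, 117 and 133 CPM in pistil, a log2 fold change of 2.62 ± 0.17 (SE) against pistil, the nearest of the 3 (edgeR adjusted p = 2.16e-10). The 11-oxo-beta-amyrin 30-oxidase-like gene (CqNL-6_041233) had 406, 380.4 and 473 CPM in root, against 0.0766, 0.140 and 0.0704 CPM in leaf, 0, 0.147 and 1.68 in stamen and 53.96, 44.7 and 64.7 CPM in pistil, and a gene titled for similarity to lupeol synthase (CqNL-6_003885) had 534, 514 and 658 CPM in root, against 0.613, 0.489 and 0.915 CPM in leaf, 2.14, 3.96 and 1.85 in stamen and 220.4, 194 and 221 CPM in pistil. All 3 were read in pistil at the second highest level and had at most 53 reads over the 3 libraries of leaf or of stamen.

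The neighbours of these genes were looked up after their values were seen. On chromosome 11, the lupeol synthase title and beta-amyrin 28-oxidase were the ends of a span of 8 genes and 133.4 kb, and the 6 genes between them, 3 with beta-amyrin synthase titles, had at most 0.0251 FPKM in root. On chromosome 9, beta-amyrin 30-oxidase lay near a methyltransferase title (CqNL-6_041230), which had 277 FPKM in root, against 0.0753, 0.727 and 37.8 FPKM in leaf, stamen and pistil. On its other side lay a root-only glucosyltransferase title (CqNL-6_041236, 13.3, 11.7 and 12.2 FPKM in the root libraries) and an untitled gene (CqNL-6_041235) with 163 FPKM in root, against 0, 0.127 and 107 FPKM in leaf, stamen and pistil, which was not called highest. On chromosome 1, a span of 6 genes and 61.4 kb held 4 bHLH genes titled bHLH18, bHLH19 and bHLH25, a group whose relatives in Medicago control triterpene saponin synthesis. The bHLH19-like gene (CqNL-6_013515) had 177, 168 and 197 CPM in root, against 0, 0 and 0 CPM in leaf, 0, 0.293 and 0.503 in stamen and 22.3, 13.8 and 15.3 CPM in pistil, a log2 fold change of 3.40 ± 0.18 (SE) against pistil, the nearest of the 3 (edgeR adjusted p = 4.31e-11). The bHLH18-like gene (CqNL-6_013512) had 17.4, 16.9 and 22.0 CPM in root and 1 and 2 reads in stamen and pistil, the bHLH25-like gene (CqNL-6_013511) had 11.1, 10.2 and 12.04 CPM in root and 4 reads in pistil, and the second bHLH19-like gene (CqNL-6_013513) was root-only, with 1.495, 1.05 and 0.862 FPKM. Of the 4, the first bHLH19-like gene alone had more than 4 reads in pistil.

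**Figure D4:**
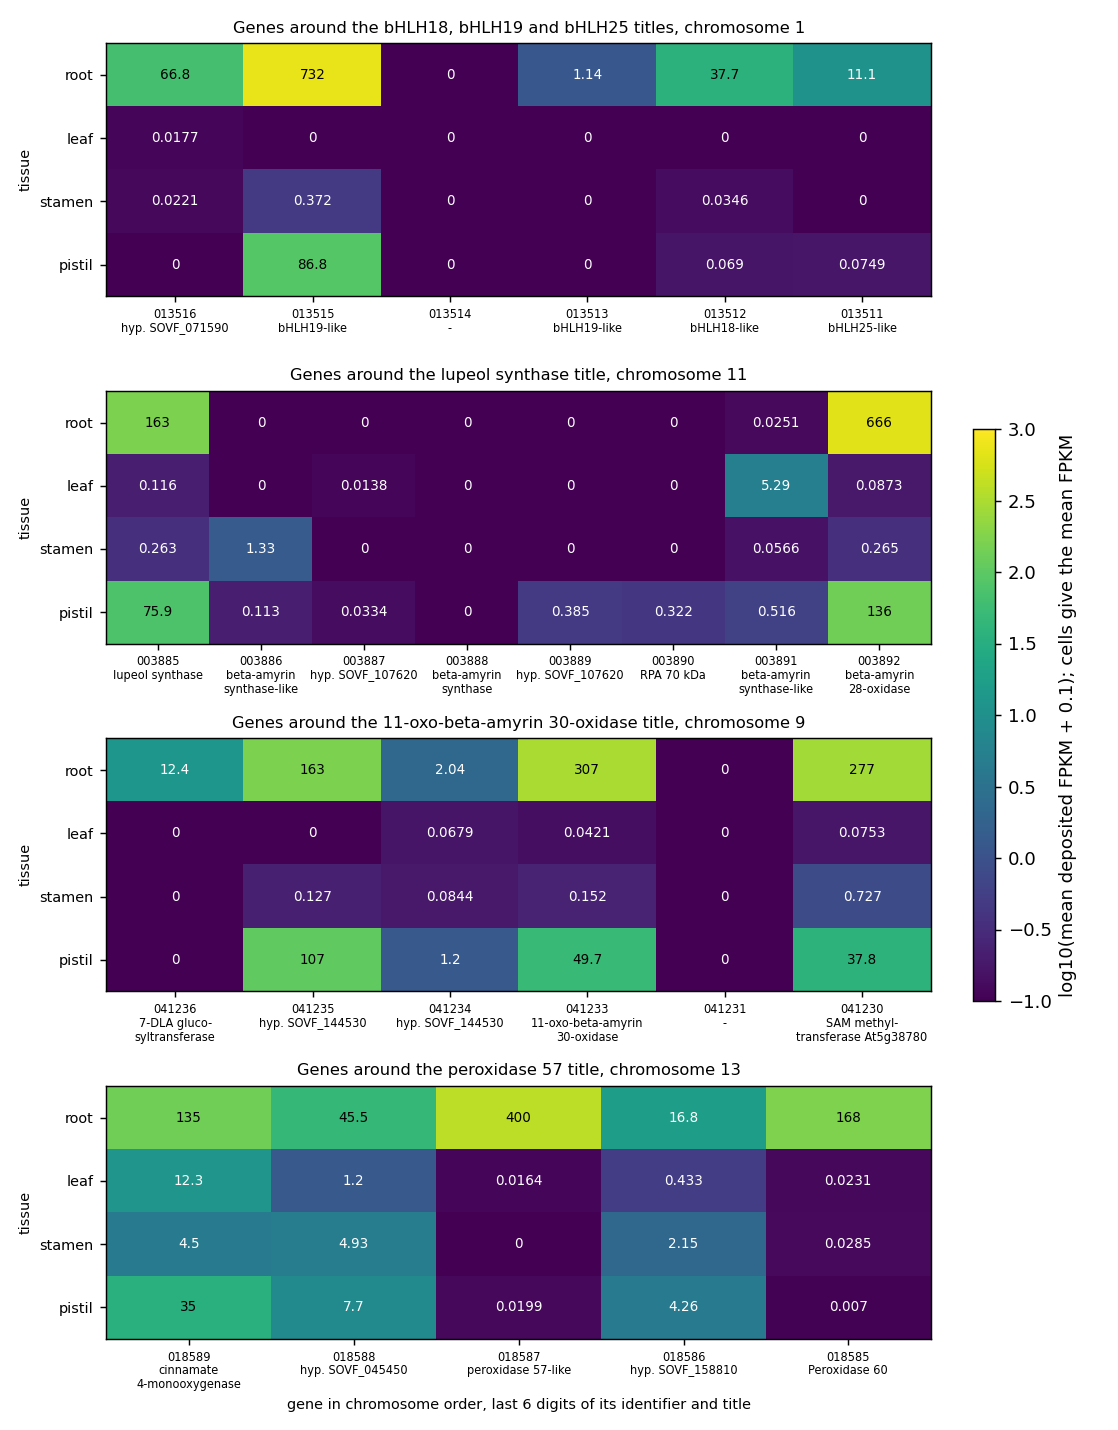
Mean deposited FPKM of genes in chromosome order in root, leaf, stamen and pistil (rows), with colour as log10 of FPKM plus 0.1 and the FPKM printed in each cell, for stretches of chromosomes 1, 11, 9 and 13. High cells stand in the root row, and in the stretches on chromosomes 11 and 9 and at bHLH19-like also, at a lower level, in the pistil row; on chromosome 13 the 5 genes around peroxidase 57-like were all highest in root, at 16.8 to 400.1 FPKM.

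The run on chromosome 13 covered 82.2 kb and held trans-cinnamate 4-monooxygenase (CqNL-6_018589), peroxidase 57-like (CqNL-6_018587) and Peroxidase 60 (CqNL-6_018585), with 135, 400.1 and 168 FPKM in root. The last overlapped its neighbour, and reads of overlapping genes may be shared. On chromosome 12, 4 adjacent genes with a 4,5-dioxygenase-like title, the enzyme type that forms the core of betalain pigments in this plant order, were highest in root, at 18.9 to 225 FPKM. The highest of them (CqNL-6_034116) had 225 FPKM in root, against 2.24, 11.5 and 1.88 FPKM in leaf, stamen and pistil.

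Of the defence proteins, 28 of 84 tested members were highest in root and 2 lowest (24 of 80 highest without root-only genes), and the median was 1.36. The share highest was 33.3%, beside 10.4% of all tested genes, of which 6.02% were lowest. The pathogenesis-related gene of highest level (CqNL-6_026278, named above) had 1008, 1006 and 1232 CPM in root, against 0.153, 0.559 and 0 CPM in leaf, 0, 0.880 and 0.168 in stamen and 0.135, 0 and 0.0418 CPM in pistil. A chitinase 4-like gene, an enzyme that cuts fungal walls (CqNL-6_035518), had 568 ± 49.9 CPM in root, against 0.0700 ± 0.0699 CPM in leaf, 0.625 ± 0.578 CPM in stamen and 0.127 ± 0.150 CPM in pistil, a log2 fold change of 9.74 ± 0.33 (SE) against stamen, the nearest of the 3 (edgeR adjusted p = 8.54e-15). A defensin title (CqNL-6_025775) had 84.7 ± 5.14 CPM in root, against 21.7 ± 2.44 CPM in leaf, 36.4 ± 4.48 CPM in stamen and 16.6 ± 1.60 CPM in pistil, a log2 fold change of 1.21 ± 0.12 (SE) against stamen, the nearest of the 3 (edgeR adjusted p = 3.71e-08). Of the lipid-transfer proteins, 7 of 30 tested members were highest in root and 7 lowest (6 of 29 highest without root-only genes). A pEARLI1-like title (CqNL-6_021051) had 107, 113 and 126 CPM in root, its highest, and 9.04, 9.41 and 10.8 CPM in pistil, while CqNL-6_044529 had 0, 0.0423 and 0 CPM in root, against 324, 241 and 274 CPM in leaf, 47.3, 113 and 29.7 in stamen and 79.5, 77.4 and 98.8 CPM in pistil.

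Of the 24 CqCrRLK1L loci, which encode the receptor kinases, 21 were tested, 2 were highest in root and 3 lowest. The share highest was 9.52%, near the 10.4% of all tested genes. Their median log2 fold change against the mean was -0.04, or 0.61 with the total library size, as for all genes (0.64). Those highest were both of the CAP1 group. CqCrRLK1L22 (CqNL-6_005517) had 52.5, 68.3 and 83.1 CPM in root, against 0.0766, 0 and 0.141 CPM in leaf, 0.285, 0.293 and 0 in stamen and 2.79, 3.31 and 2.42 CPM in pistil, a log2 fold change of 4.58 ± 0.20 (SE) against pistil, the nearest of the 3 (edgeR adjusted p = 5.27e-13). CqCrRLK1L16 (CqNL-6_022000) had 35.7, 42.3 and 56.8 CPM in root, 0 reads in leaf and stamen and 2.61, 2.47 and 1.46 CPM in pistil, a log2 fold change of 4.37 ± 0.23 (SE) against pistil, the nearest of the 3 (edgeR adjusted p = 3.76e-10). It was at least 623-fold higher than in leaf and at least 296-fold higher than in stamen. Both genes were highest in root replicate 3, and neither overlapped between root and another tissue.

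The FERONIA group, which in Arabidopsis acts in root growth and salt tolerance, was read in every tissue. CqCrRLK1L24 (CqNL-6_044443) had 108, 118 and 129 CPM in root, against 76.8, 75.7 and 86.2 CPM in leaf, 51.3, 56.0 and 51.8 in stamen and 54.1, 61.1 and 52.7 CPM in pistil, and CqCrRLK1L15 (CqNL-6_049660) had 108 ± 11.7 CPM in root, against 59.6 ± 4.48 CPM in leaf, 43.0 ± 1.18 CPM in stamen and 43.3 ± 5.48 CPM in pistil. Both were higher than the mean of the others, by 0.93 ± 0.08 (SE, edgeR adjusted p = 1.17e-08) and 1.17 ± 0.09 (SE, edgeR adjusted p = 1.08e-09) on the log2 scale, and neither reached the 2-fold limit in all 3 pairs. CqCrRLK1L13, of the HERK1/ANJ group (CqNL-6_041568), was also higher than the mean, by 1.21 ± 0.10 (SE, edgeR adjusted p = 1.86e-09). In the THESEUS1 group, CqCrRLK1L11 (CqNL-6_006913) was neither highest nor lowest, with 15.7 ± 1.41 CPM in root, against 19.3 ± 0.726 CPM in leaf, 4.04 ± 3.34 CPM in stamen and 15.4 ± 1.28 CPM in pistil. Lowest in root were CqCrRLK1L21 of the BUPS1/2 group (CqNL-6_018028), with 0.0504, 0.127 and 0.0517 CPM in root, against 1.15, 1.47 and 1.41 CPM in leaf, 2289, 2209 and 2648 in stamen and 74.8, 52.9 and 54.4 CPM in pistil, CqCrRLK1L8 (CqNL-6_010309), with 6.25 ± 0.297 CPM in root, against 48.0 ± 4.48 CPM in leaf, 14.6 ± 2.05 CPM in stamen and 22.2 ± 4.03 CPM in pistil, but not with the total library size, and the locus of CqCrRLK1L17 and CqCrRLK1L18 (CqNL-6_002275), with 3.94 ± 0.838 CPM in root, against 16.7 ± 2.16 CPM in leaf, 30.8 ± 1.16 CPM in stamen and 25.6 ± 0.986 CPM in pistil.

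Of the 16 CqRALF loci, which encode the peptide ligands, 13 were tested, 2 were highest in root and 1 lowest (1 of 12 highest without root-only genes). The share without root-only genes was 8.33%, near the 9.36% of all tested genes. CqRALF9 (CqNL-6_023729) had 58.3, 76.1 and 109 CPM in root, against 0.0766, 0.0699 and 0.422 CPM in leaf, 0, 0 and 0 in stamen and 0.0450, 0 and 0 CPM in pistil, a log2 fold change of 8.66 ± 0.37 (SE) against leaf, the nearest of the 3 (edgeR adjusted p = 2.10e-12). At 393 ± 115 FPKM in root (SD, n = 3) it was above CqRALF18, at 285 ± 71.6 FPKM, and both were highest in root replicate 3. CqRALF7 (CqNL-6_047381) was lowest, with 0.455 ± 0.0943 CPM in root, against 1.66 ± 0.226 CPM in leaf, 6.47 ± 0.174 CPM in stamen and 3.31 ± 0.645 CPM in pistil. The loci of CqRALF3 and CqRALF4 (CqNL-6_028401) and of CqRALF15 and CqRALF16 (CqNL-6_033944) were read in all tissues. The first had 52.7 ± 5.71 CPM in root, against 38.5 ± 6.24 CPM in leaf, 37.1 ± 5.45 CPM in stamen and 21.1 ± 6.39 CPM in pistil. The other had 55.7 ± 2.14 CPM in root, against 42.6 ± 6.47 CPM in leaf, 20.6 ± 3.75 CPM in stamen and 19.97 ± 2.62 CPM in pistil, and was highest in root with the total library size but not with TMM. CqRALF2 (CqNL-6_007158) and CqRALF17 (CqNL-6_022438), which led in stamen, had 0 and 1 reads in the 3 root libraries together.

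Genes lowest in root were led by photosynthesis. Of the photosystem and light-harvesting genes, 28 of 40 tested were lowest and none highest, with a median of -7.71 [-7.12], beside the 6.02% lowest among all tested genes. Of the Calvin cycle enzymes, 12 of 13 were lowest, with a median of -8.47. With the total library size these counts were 22 and 10. The light-harvesting protein LHCb1.2 (CqNL-6_029603) had 0.151, 0.593 and 0.517 CPM in root, against 11474, 12473 and 13428 CPM in leaf, 7.84, 3.52 and 5.37 in stamen and 78.6, 100.7 and 117 CPM in pistil, a log2 fold change of -3.68 ± 0.44 (SE) against stamen, the nearest of the 3 (edgeR adjusted p = 3.36e-07). A Rubisco small chain 3 gene, of the carbon-fixing enzyme (CqNL-6_029844), had 0.403, 0.254 and 0.155 CPM in root, against 9609.7, 10297 and 9872 CPM in leaf, 9.41, 8.65 and 2.68 in stamen and 9.40, 14.2 and 17.6 CPM in pistil, a log2 fold change of -4.66 ± 0.51 (SE) against stamen, the nearest of the 3 (edgeR adjusted p = 1.30e-07). The roots were grown in the dark, and the part of light in these values cannot be told apart from that of the organ.

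Genes of surface lipids were also among them. A second cytochrome P450 86B1-like gene (CqNL-6_031973) had 0 reads in the 3 root libraries, against 75.3, 68.9 and 59.5 CPM in leaf, 30.1, 35.5 and 30.9 in stamen and 23.6, 23.1 and 26.7 CPM in pistil, so that root was at least 1422-fold lower than leaf. Another 2 genes of that title were root-only, at 0.0909 and 0.522 FPKM on average. A 3-ketoacyl-CoA synthase 6-like gene, an enzyme of cuticular wax (CqNL-6_009861), had 0.148 ± 0.0960 CPM in root, against 42.4 ± 5.42 CPM in leaf, 59.0 ± 9.69 CPM in stamen and 21.1 ± 1.99 CPM in pistil, a log2 fold change of -7.12 ± 0.27 (SE) against pistil, the nearest of the 3 (edgeR adjusted p = 1.05e-13). Snakin-2-like (CqNL-6_019867), a small antimicrobial peptide gene, had 0.602 ± 0.273 CPM in root, against 72.6 ± 12.1 CPM in leaf, 124 ± 9.82 CPM in stamen and 79.4 ± 18.2 CPM in pistil, and starch synthase 4 (CqNL-6_000067) had 0.356 ± 0.151 CPM in root, against 20.6 ± 1.25 CPM in leaf, 25.3 ± 5.38 CPM in stamen and 47.8 ± 1.72 CPM in pistil.

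In all, 190 genes (0.325%) were read in all 9 other libraries and in no root library, and 72 of these were titled. They included a chloroplast carbonic anhydrase (CqNL-6_044788), with 1730.0 FPKM in leaf, and protodermal factor 1, an epidermal gene of the shoot (CqNL-6_031694), with 781 FPKM in pistil. Also among them were YABBY 1 and YABBY 2, which set the polarity of lateral organs (CqNL-6_001014 and CqNL-6_019045), with 86.8 and 21.9 FPKM in pistil. These 4 were picked after their values were seen. Genes lowest in root were highest in stamen in 898 cases, in leaf in 875 and in pistil in 390.

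Few ribosomal protein, cyclin, replication licensing and histone genes were highest in root, beside the 10.4% of all tested genes. Of 125 cytosolic ribosomal protein genes, 2 were highest in root, although 111 were higher than the mean of the other tissues. Their summed level was 13862 to 17248 CPM in root, against 18741 to 24732 CPM in leaf, 1219 to 1571 CPM in stamen and 8095 to 9869 CPM in pistil, so that leaf was above root and stamen far below it. With the total library size, these ranges overlapped, at 18899 to 24405 CPM in root, against 15641 to 20779 CPM in leaf. Of the cyclins and replication licensing genes, none of 18 was highest in root and 1 was lowest, while 10 were higher than the mean and 2 lower. Of the histones, 1 of 30 was highest, a root-only gene, while 19 were higher than the mean and 5 lower. For sugar supply, 11 of 54 tested transporters, invertases and sucrose synthases were highest and 4 lowest. A sucrose synthase, which opens sucrose to metabolism in sink organs (CqNL-6_030441), had 431 ± 35.4 CPM in root, against 29.7 ± 5.16 CPM in leaf, 22.6 ± 5.20 CPM in stamen and 22.9 ± 5.03 CPM in pistil, a log2 fold change of 3.86 ± 0.18 (SE) against leaf, the nearest of the 3 (edgeR adjusted p = 9.78e-13). A non-symbiotic haemoglobin, a gene of low oxygen and nitric oxide metabolism (CqNL-6_017927), had 16.7 ± 2.39 CPM in root, against 0.0466 ± 0.0807 CPM in leaf, 0.0951 ± 0.165 CPM in stamen and 0.652 ± 0.155 CPM in pistil.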

How the data were processed

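RNA of untreated root, leaf, stamen and pistil of quinoa NL-6 (3 libraries each) was sequenced by the authors, who aligned the reads with HISAT2 2.1.0 (as the submitters' processing notes name it) against the genome of this variety and counted them per gene with HTSeq. The HTSeq version, strand setting and handling of multiply aligned reads were not given in the sources used here. A single deposited table holds raw read counts per gene, which were tested here. It also holds the FPKM values that the authors computed from those counts, the library totals and gene lengths, without the TMM scaling, so that FPKM was used only to compare genes within a tissue or to show neighbouring genes. Gene titles, gene ontology and KEGG entries are the deposited ones, made by matches to other species, and each gene of a title may share reads with its copies.

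Counts of the 12 libraries were fitted together, without covariates, with edgeR 4.0.16 (limma 3.58.1, R 4.3.3) after its expression filter and TMM scaling, by the quasi-likelihood test, with Benjamini-Hochberg adjustment over the 35954 tested genes and a threshold of 0.05. Root was set against each other tissue (highest and lowest: a log2 fold change of at least 1 in all 3 pairs) and against the mean of their 3 log levels. The steps were tested on simulated data. DESeq2 1.42.0, other scalings, filters and fold limits, and fits without each library were alternatives. Tables and plots were made with Python 3.11.15, pandas 2.3.3, numpy 2.4.6 and matplotlib 3.10.9.

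The members, the 45 gene lists and the rules were chosen with earlier results of these data known. Named genes are up to 3 per list and direction with the highest FPKM, the 12 titled root-only genes with the highest FPKM, the 10 titled genes with the clearest difference in each direction, and any CqCrRLK1L or CqRALF gene, where a title shared by several genes of one such choice is given once, by the first of them. Genes at the named chromosome stretches, the cell-type titles and the highest root-only gene were chosen after their values were seen. So were the glutamine synthetase and PIP1 genes, the 4 genes absent from root and the gene ontology and KEGG groups. No identifier matched the reference gene table (0), so no sequence is shown. The libraries of a tissue were separate pools, and p-values measure the spread between pools. The NaCl-treated leaves were used only for the count given at the end.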

Additional observations from a re-analysis of the deposited data

Results flagged for a closer look

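The leaves treated with NaCl were outside the comparison. Of the 702 root-only genes, 581 had 0 reads in these 3 libraries as well, 121 had reads in at least 1 of them, and 11 had reads in all 3, above the 0 reads of the untreated leaves. The most reads were those of an untitled gene (CqNL-6_012660), with 313, 33 and 146 reads in NaCl-treated leaf replicates 1, 2 and 3, against 0 in the 3 untreated leaf libraries, and a mean of 5.67 reads per root library. Another untitled gene (CqNL-6_048862) had 316, 2 and 71 reads in the NaCl-treated leaves and a mean of 201 reads per root library. In both, NaCl-treated leaf replicate 1 was highest and replicate 2 lowest. No test was run on these counts.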

How the results depend on the processing

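The calls rested most on scaling and on how the other tissues were joined. With the total library size, 6850 genes were lower than the mean (20493 were higher) and 1184 were lowest, and the counts of members highest or lowest moved by over 1.5 times in 21 of 90 list counts. Without root-only genes, an alternative chosen after seeing the data, the count of members highest in root moved by over 1.5 times in 5 of 26 lists (expansins, Casparian strip and dirigent proteins, root hair genes, histones and CqRALF peptides). With the 9 other libraries as 1 group, 3596 genes were higher and 2345 lower than the mean. With a 2-fold limit these numbers were 8950 and 7393, and with no fold limit 3587 genes were lowest in root. DESeq2's Wald test, the other 2 scalings and no read filter kept every count within 1.5 times. The replicate numbers did not pair libraries (correlations from -0.06 to 0.05 over 18 pairs of libraries), and with the replicate number as a block 13774 genes were higher, 11870 lower, 3713 highest and 2126 lowest. Leaving out 1 library at a time gave 13345 to 14930 genes higher, 11029 to 11949 lower, 3656 to 3975 highest, 1936 to 2164 lowest and 715 to 774 root-only. Root-only genes numbered 410 with at least 10 reads in each root library, 1276 with up to 3 reads elsewhere and 707 with all libraries thinned to 12499775 reads. Of 1805 checks of 95 named genes against the mean, 1787 kept direction and side of the threshold, 0 reversed, 16 missed the threshold (15 of them with the 9 libraries as 1 group) and 2 newly passed it, both with DESeq2. Genes of 1 to 3 reads per library cannot be told from absence at this depth.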
